A study of Mus musculus with 6 samples.

Results

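Imprinted growth genes are described here in the cochlear duct of mice at postnatal day 8 (P8). The group was set by name as Igf2, H19, Mest, Peg3, Plagl1, Grb10, Cdkn1c, Ndn, Meg3 and Dlk1, and its members were found by gene symbol. Of the 10 named genes, 9 were analysed among the 14865 genes of the expression table, and Dlk1 was not analysed here. RNA of whole cochlear ducts of C57BL/6 mice was sequenced after polyA selection in 3 Gfi1+/+ and 3 Gfi1cre/+ libraries. In Gfi1cre/+ mice the coding sequence of Cre recombinase replaces that of 1 of the 2 Gfi1 copies, so that Gfi1 regulatory sequences drive Cre and the mouse is left with a single working copy of this transcription factor gene of hair cells and blood cells. Each Gfi1+/+ library was made from the 2 cochleae of 1 mouse, whereas each Gfi1cre/+ library was made from the 6 cochleae of 3 mice and is an average over animals. The study asked whether gene expression differs between these genotypes.

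Imprinted genes are expressed mainly or only from the copy inherited from 1 parent, because a DNA methylation mark set in the egg or the sperm differs between the parental copies. Many of them act on growth. Genes expressed from the father's copy, such as Igf2, tend to promote fetal and early postnatal growth, and genes expressed from the mother's copy, such as Grb10 and Cdkn1c, tend to restrain it. In most tissues this group is highly expressed before birth and declines as growth slows after birth. The reads were counted per gene and not per parental copy, so imprinting itself was not measured.

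Values are normalized reads, the read counts of a gene divided by 1 size factor per library. Reads counted on genes came to between 13603908 and 16136022 in the Gfi1+/+ libraries and between 17939607 and 19359753 in the Gfi1cre/+ libraries. A count of 0 would have allowed up to 3 reads, or between 2.61 and 3.70 normalized reads, which like the Poisson intervals below covers counting error only. The markers of the cochlear epithelium that were looked for were all among the genes tested, 10 of 10 for hair cells and 8 of 8 for supporting cells. Values of single libraries are given in the order of the replicate numbers. Gfi1 had 147, 160.2 and 152 normalized reads in the Gfi1+/+ replicates and 136, 129.6 and 139 in the Gfi1cre/+ replicates, with no overlap. The summed reads of Y-linked genes were between 0 and 2.1 in the Gfi1+/+ libraries and between 794 and 1621 in the Gfi1cre/+ libraries, so sex and genotype cannot be told apart in any difference below. Gfi1+/+ replicate 1 stood apart from the other libraries in neuron markers, which had a summed level of 9234 normalized reads there and of 1177 to 2860 in the other 5 libraries. In bulk RNA, fewer cells of a type and less RNA per cell cannot be told apart.

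Promoter windows of Mest, Plagl1, Grb10 and Meg3 are shown first, picked because they hold the short motif that is read at imprinted control regions. The sequences are RefSeq windows on GRCm38.p6, which run from 250 bases before to 50 after an annotated transcript start and are printed in the direction of the gene. Capitals mark TGCCGC or its reverse complement GCGGCA, the motif that ZFP57 binds where it is methylated, searched on both strands. This motif was in 11.6% of all 32851 windows and in at least 1 window of 13.1% of the 27025 genes with a window. Of the 8 imprinted growth genes with a window, Dlk1 among them for its sequence only, 5 (Igf2, Mest, Plagl1, Grb10 and Meg3) held it in 6 of the 15 windows of the group. Peg3, Ndn and Dlk1 held none. The Mest windows that start at 30737800 and 30737803 are nearly the same sequence and hold the same sites. The group has 15 windows for 8 genes, beside 32851 for 27025, so its genes had more places to hold a match. A match of these letters is a description and not a binding site, and no methylation or binding was measured here.
Mest, chr6:30737800-30738099, plus strand: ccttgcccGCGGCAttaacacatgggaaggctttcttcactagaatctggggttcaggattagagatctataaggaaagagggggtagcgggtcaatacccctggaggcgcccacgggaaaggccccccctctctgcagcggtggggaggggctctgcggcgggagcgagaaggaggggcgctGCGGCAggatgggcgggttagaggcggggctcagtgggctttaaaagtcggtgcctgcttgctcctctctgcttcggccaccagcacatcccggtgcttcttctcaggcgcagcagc
Plagl1, chr10:13090582-13090881, plus strand: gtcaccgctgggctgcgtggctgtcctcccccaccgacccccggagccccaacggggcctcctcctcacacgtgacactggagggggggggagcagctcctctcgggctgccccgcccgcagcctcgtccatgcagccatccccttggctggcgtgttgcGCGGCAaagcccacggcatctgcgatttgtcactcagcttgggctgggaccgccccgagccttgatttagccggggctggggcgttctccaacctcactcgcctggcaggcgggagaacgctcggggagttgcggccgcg
Grb10, chr11:12037371-12037670, minus strand: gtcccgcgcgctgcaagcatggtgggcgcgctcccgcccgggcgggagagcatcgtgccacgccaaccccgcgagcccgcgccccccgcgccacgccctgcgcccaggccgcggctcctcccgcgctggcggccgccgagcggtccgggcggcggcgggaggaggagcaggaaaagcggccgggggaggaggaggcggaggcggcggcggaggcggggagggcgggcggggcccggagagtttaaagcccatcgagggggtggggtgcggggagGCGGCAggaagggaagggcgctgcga
Meg3, chr12:109540746-109541045, plus strand: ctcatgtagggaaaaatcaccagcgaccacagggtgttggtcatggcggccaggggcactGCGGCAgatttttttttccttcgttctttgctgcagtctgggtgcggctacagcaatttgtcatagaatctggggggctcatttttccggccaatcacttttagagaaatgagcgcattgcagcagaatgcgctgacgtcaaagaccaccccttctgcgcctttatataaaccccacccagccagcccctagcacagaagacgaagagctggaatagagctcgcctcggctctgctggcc

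The Mest window held the motif at 2 places and the other 3 windows at 1 place each. CG pairs, the dinucleotides that are methylated, numbered 45 in the Grb10 window, and 1.93% of all windows held as many. The Plagl1 window held 26 CG pairs, the Mest window 17 and the Meg3 window 13, where the median of all windows was 7. The motif itself contains a CG pair. In the windows of the group that are not printed, CG pairs ran from 1 in another Meg3 window to 24 in an Igf2 window.

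In the gene annotation, Igf2, H19, Mest and Meg3 overlap microRNA genes on their own strand. The microRNAs of H19 and Mest are taken as examples. Their mature sequences are shown because the polyA libraries measured the host transcripts and not the microRNAs, so that nothing below is a level of these RNAs. Capitals mark the seed, bases 2 to 8, by which a microRNA pairs with its targets. The miR-675 hairpin lies in an exon of H19 on the minus strand of chromosome 7, and the miR-335 hairpin lies in an intron of Mest on the plus strand of chromosome 6. The 4 seeds differed from each other.
miR-675-5p, chr7:142577112-142577133: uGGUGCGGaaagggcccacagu
miR-675-3p, chr7:142577078-142577099: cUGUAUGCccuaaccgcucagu
miR-335-5p, chr6:30741314-30741336: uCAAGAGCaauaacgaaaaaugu
miR-335-3p, chr6:30741354-30741375: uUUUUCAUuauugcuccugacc

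The imprinted growth genes were expressed over a wide range of levels at P8, and a single member lay apart between the genotypes. Compared per kilobase of exon, H19 with 4513 and Cdkn1c with 4214 normalized reads per kb were at the top, within the highest 1.15% and 1.22% of the genes tested. Igf2 followed with 2223 normalized reads per kb, within the highest 2.34%. Ndn with 321, Grb10 with 239, Mest with 119 and Peg3 with 105 normalized reads per kb were at intermediate levels. Plagl1 had 25.1 normalized reads per kb, and Meg3 with 2.17 was among the lowest genes tested. In this order, the ranges over the 6 libraries overlapped for H19 and Cdkn1c, for Ndn and Grb10 and for Mest and Peg3, and the other neighbours did not overlap. The exon lengths join all annotated transcripts of a gene, so that genes with many long isoforms such as Meg3 (18089 bases) come out lower per kb than their main isoform would. Together the 9 genes took 0.226% of all reads counted on genes.

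**Figure D1:**
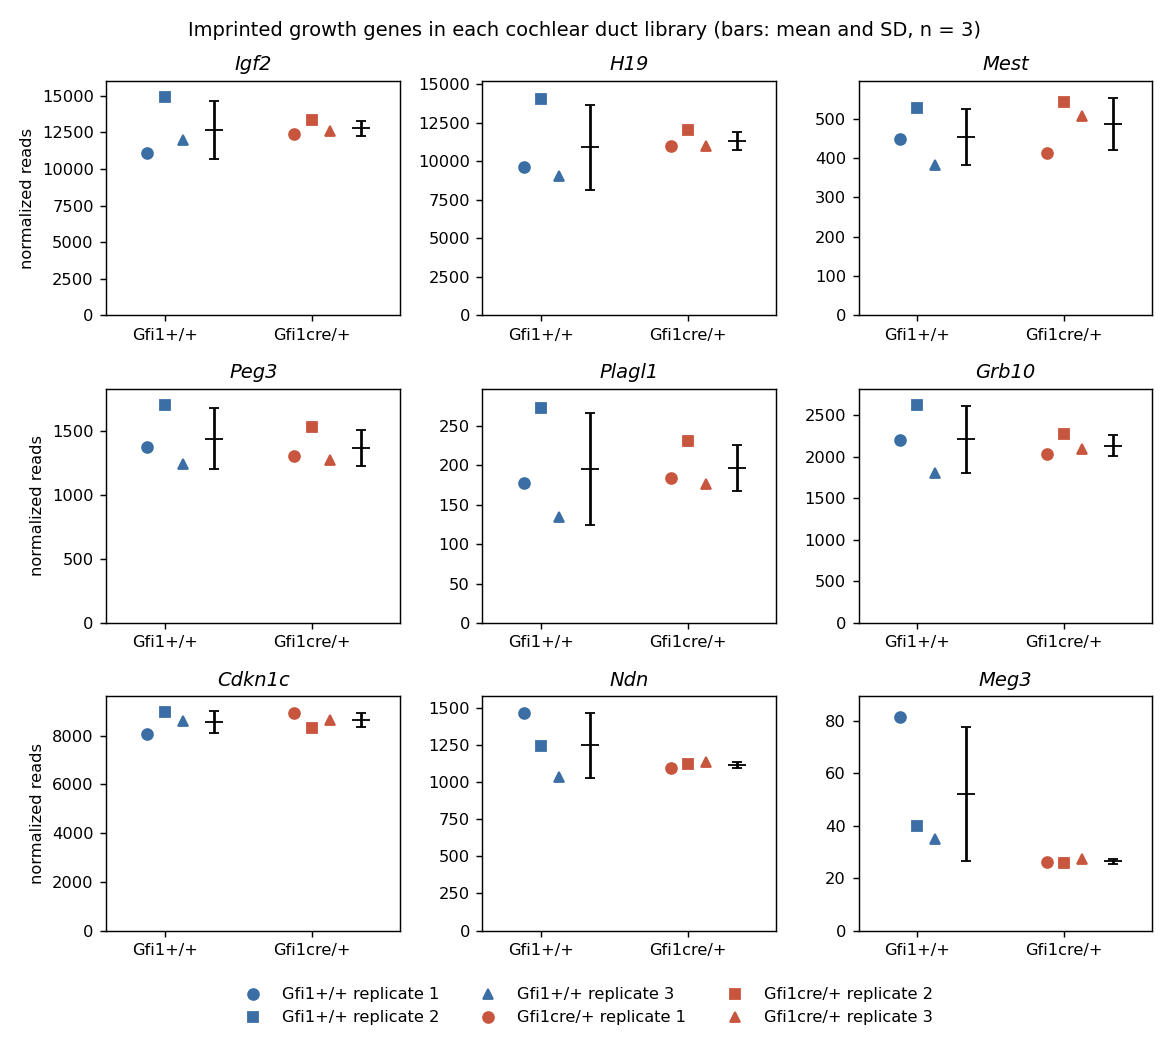
Normalized reads (vertical axes, linear from 0, a scale for each gene) of the 9 imprinted growth genes in the 3 Gfi1+/+ and 3 Gfi1cre/+ libraries, with symbols for replicates and black bars for the mean and SD of a genotype (n = 3). The genotypes overlap in every panel except that of Meg3, where Gfi1+/+ replicate 1 at 81.5 is far above the other 5 libraries.

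Igf2 encodes insulin-like growth factor 2, a growth factor of the fetus, and H19, a long noncoding RNA, is its neighbour. Both genes lie on the minus strand of chromosome 7 (GRCm38, Igf2 at chr7:142650766-142666816 and H19 at chr7:142575529-142578143), with 72622 bases between them. They share enhancers and are expressed from opposite parental copies under 1 control region. Igf2 had 11110.3, 14897 and 11968 normalized reads in the Gfi1+/+ replicates and 12391, 13355 and 12616 in the Gfi1cre/+ replicates. H19 had 9608, 14051 and 9017 normalized reads in the Gfi1+/+ replicates and 10969, 12008 and 10960.0 in the Gfi1cre/+ replicates. For both genes Gfi1+/+ replicate 2 was the highest library, the other Gfi1+/+ libraries were the lowest, and the Gfi1cre/+ libraries lay between. The mean of Igf2 was 12658 ± 1985 (SD, n = 3) in Gfi1+/+ and 12787 ± 504 in Gfi1cre/+, a log2 fold change of 0.03 with a 95% interval of -0.21 to 0.26. The mean of H19 was 10892 ± 2752 in Gfi1+/+ and 11312 ± 602 in Gfi1cre/+, a log2 fold change of 0.08 with a 95% interval of -0.25 to 0.41. Neither difference was larger than the spread between replicates (exact permutation test over libraries, two-sided, p = 1 for each). Without Gfi1+/+ replicate 2, the genotypes no longer overlapped in either gene, and the log2 fold changes were 0.15 for Igf2 and 0.28 for H19, of which that of H19 had an unadjusted p under 0.05 in limma and neither an adjusted p under 0.05. In that comparison of 2 libraries with 3, the genotypes did not overlap in 16.0% of the genes tested.

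Some reads of this locus cannot be assigned to 1 gene. In the annotation used here, 62.8% of the exon bases of Igf2 are also exon of Gm49394, a protein-coding gene model on the same strand, and 1.71% are exon of Igf2os on the opposite strand. The strand setting of the read counting is not given in the sources used here, so that reads from opposite strands cannot be told apart.

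Plagl1 encodes a zinc finger transcription factor that regulates other imprinted genes, Igf2 and H19 among them. It lies at chr10:13060504-13131694 on the plus strand. Plagl1 had 178, 273 and 134 normalized reads in the Gfi1+/+ replicates and 185, 231 and 176 in the Gfi1cre/+ replicates. The highest and the lowest library were both Gfi1+/+, a 2.04-fold range, the widest of the group after that of Meg3. The log2 fold change was 0.07 (SE 0.228, 95% interval -0.45 to 0.59), an interval that covers differences in both directions.

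Grb10 and Cdkn1c are the growth-restraining members. Grb10, at chr11:11930508-12038683 on the minus strand, encodes an adaptor that binds the insulin and IGF1 receptors and dampens their signalling. Cdkn1c, at chr7:143458339-143461050 on the minus strand and in the same chromosome region as Igf2, encodes the cyclin-dependent kinase inhibitor p57Kip2. Grb10 had 2199.6, 2622 and 1809 normalized reads in the Gfi1+/+ replicates and 2032, 2279 and 2095 in the Gfi1cre/+ replicates. Cdkn1c had 8071, 8985 and 8612 normalized reads in the Gfi1+/+ replicates and 8920.1, 8329 and 8639 in the Gfi1cre/+ replicates. Grb10 followed the order of Plagl1 among the Gfi1+/+ libraries, and Cdkn1c was nearly level, with the highest library 1.11-fold above the lowest, the narrowest range of the group. The log2 fold change was -0.03 for Grb10 (95% interval -0.30 to 0.23) and 0.01 for Cdkn1c (95% interval -0.13 to 0.15). In the annotation, 30.7% of the exon bases of Cdkn1c overlap an antisense gene model.

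Mest and Peg3 are expressed from the father's copy and are known for effects on growth and on maternal behaviour. Mest, at chr6:30723547-30748465 on the plus strand, encodes a protein of the alpha/beta hydrolase fold, and Peg3, at chr7:6703892-6730431 on the minus strand, encodes a zinc finger protein. Mest had 449, 527 and 383 normalized reads in the Gfi1+/+ replicates and 413, 541 and 506 in the Gfi1cre/+ replicates. Peg3 had 1374, 1701 and 1242 normalized reads in the Gfi1+/+ replicates and 1301, 1527 and 1273 in the Gfi1cre/+ replicates. In both genes replicate 2 was the highest library of each genotype, and the genotypes overlapped. The log2 fold change was 0.11 for Mest (95% interval -0.19 to 0.40) and -0.07 for Peg3 (95% interval -0.33 to 0.20). Of the exon bases of Mest, 23.1% overlap those of Copg2 on the opposite strand, which had between 1368 and 1533 normalized reads.

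Ndn encodes necdin, a protein of the MAGE family that is abundant in neurons and binds E2F factors. It is a gene of 1 exon at chr7:62346569-62350262 on the plus strand, far from the Igf2 cluster. Ndn had 1469, 1244 and 1035 normalized reads in the Gfi1+/+ replicates and 1097, 1126 and 1134 in the Gfi1cre/+ replicates. The 2 highest libraries and the lowest were Gfi1+/+. The mean was 1249 ± 217 in Gfi1+/+ and 1119 ± 19.3 in Gfi1cre/+, a log2 fold change of -0.14 with a 95% interval of -0.39 to 0.10.

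Meg3 was the member with the largest difference between the genotypes, at a low level. It is a long noncoding RNA expressed from the mother's copy, at chr12:109541001-109571726 on the plus strand, 77664 bases from the end of Dlk1 in the same domain. Meg3 had 81.5, 39.8 and 34.8 normalized reads in the Gfi1+/+ replicates and 26.1, 25.7 and 27.4 in the Gfi1cre/+ replicates, from 66, 38 and 33 and from 30, 29 and 29 reads. Every Gfi1+/+ library was above every Gfi1cre/+ library, and replicate 1 stood far above the other Gfi1+/+ libraries. Only Gfi1+/+ replicate 1 reached the minimum of 40 normalized reads, so Meg3 was tested only through the library where it was highest. The 95% Poisson interval of replicate 1 ran from 63.0 to 103.6 normalized reads and lay above those of the other 5 libraries. The intervals of Gfi1+/+ replicates 2 and 3, from 28.2 to 54.6 and from 24.0 to 48.9, overlapped those of the Gfi1cre/+ libraries, of which the lowest began at 17.2 and the highest ended at 39.3. The log2 fold change was -0.85 (SE 0.327, 95% interval -1.59 to -0.11), and limma gave an adjusted p of 0.999. In the exact permutation test over libraries p was 0.1, the smallest that 3 libraries against 3 allow. Without Gfi1+/+ replicate 1 the log2 fold change was -0.48, in a comparison of all listed genes added after the values had been seen. Genotypes that are apart over all libraries stay apart when a library is left out, so overlap was not informative there.

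Among the 9 members, Meg3 alone had an unadjusted p under 0.05 in limma's test, where 3.04% of the 14455 genes tested did. Meg3 was also the only one whose genotypes did not overlap, as was found for 7.52% of the genes tested. Since Meg3 passed the minimum for testing only in Gfi1+/+ replicate 1, its highest library, neither result is independent of that value. No member had an adjusted p under 0.05 in limma, where 0.0277% of the genes did. The other 8 members had an absolute log2 fold change under 0.15, which was also found for 83.1% of the genes tested. Of the 9 log2 fold changes 5 were positive and 4 negative, with a median of 0.01 beside -0.0001 over all genes tested. The 95% intervals of these 8 genes all included 0, and on the log2 scale their upper bounds ran from 0.10 for Ndn to 0.59 for Plagl1 and their lower bounds from -0.13 for Cdkn1c to -0.45 for Plagl1.

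**Figure D2:**
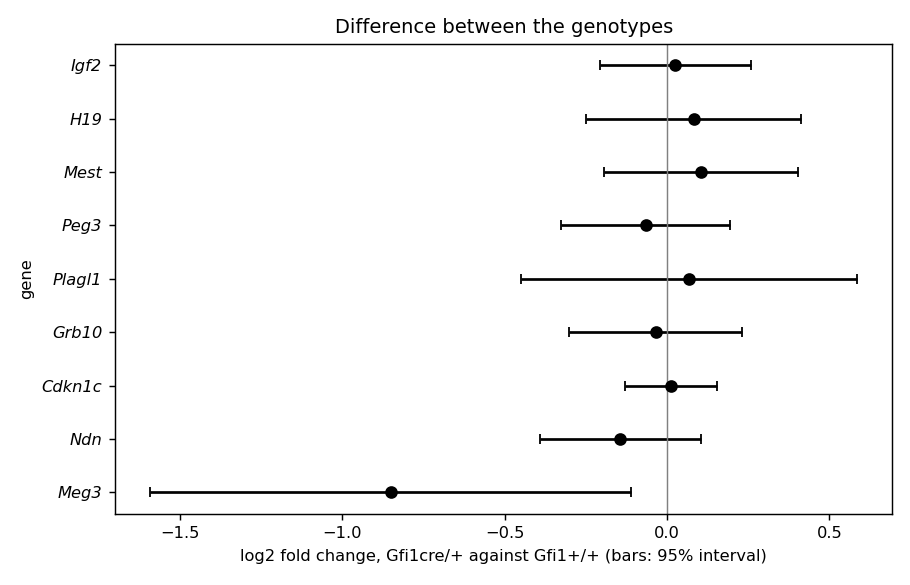
Log2 fold change of each imprinted growth gene, Gfi1cre/+ against Gfi1+/+ (horizontal axis, on log2(normalized reads + 1)), with the limma estimate as a point and its 95% interval, not adjusted for the number of genes, as a bar. The bars of 8 genes include 0, that of Cdkn1c is the narrowest (-0.13 to 0.15), and that of Meg3 runs from -1.59 to -0.11.

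The members differed more among the Gfi1+/+ libraries than among the Gfi1cre/+ libraries. The SD of log2(normalized reads + 1) was larger in Gfi1+/+ for 9 of the 9 genes. The share of all genes tested with the larger SD in Gfi1+/+ was not counted. It was 0.346 in Gfi1+/+ and 0.0757 in Gfi1cre/+ for H19, 0.515 and 0.207 for Plagl1, and 0.253 and 0.0250 for Ndn. Over all genes tested the median SD was also larger in Gfi1+/+, at 0.119 beside 0.0737 in Gfi1cre/+, so this direction was not particular to the members. Of the 9 members 8 lay above this median in Gfi1+/+ and 5 in Gfi1cre/+. A Gfi1+/+ library is 1 mouse and a Gfi1cre/+ library a pool of 3, so that the genotype and the averaging over mice cannot be told apart in this difference.

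Across the libraries Igf2, H19, Mest, Peg3, Plagl1 and Grb10 varied together, and Cdkn1c and Meg3 did not share their pattern. Ndn shared it only without Gfi1+/+ replicate 1, the library that stood apart in neuron markers, where its r with the 6 genes ran from 0.78 to 0.97, beside -0.22 to 0.53 over all 6 libraries. These 6 genes were put together after their values had been seen, and their likeness is given without a test. Their mean deviation from the gene's mean over the 6 libraries was -0.09, 0.31 and -0.26 on the log2 scale in the Gfi1+/+ replicates and -0.07, 0.15 and -0.03 in the Gfi1cre/+ replicates. Gfi1+/+ replicate 2 was thus high and replicate 3 low, with a smaller rise in Gfi1cre/+ replicate 2. Of the 9 members, Igf2, H19, Peg3, Plagl1, Grb10 and also Cdkn1c (6 genes) had their highest value in Gfi1+/+ replicate 2, where 17.3% of the genes tested had theirs. Mest was highest in Gfi1cre/+ replicate 2. The libraries compared here were picked after the values had been seen, so the shares over all genes are given without a test. In 4 of the 9 (H19, Peg3, Plagl1 and Grb10) replicate 2 was the highest library and replicate 3 the lowest, an order found in 6.28% of the genes tested. The deviation of Plagl1 was 0.51 in replicate 2 and -0.51 in replicate 3, the widest of the 6 genes, and that of H19 was 0.36 and -0.28.

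**Figure D3:**
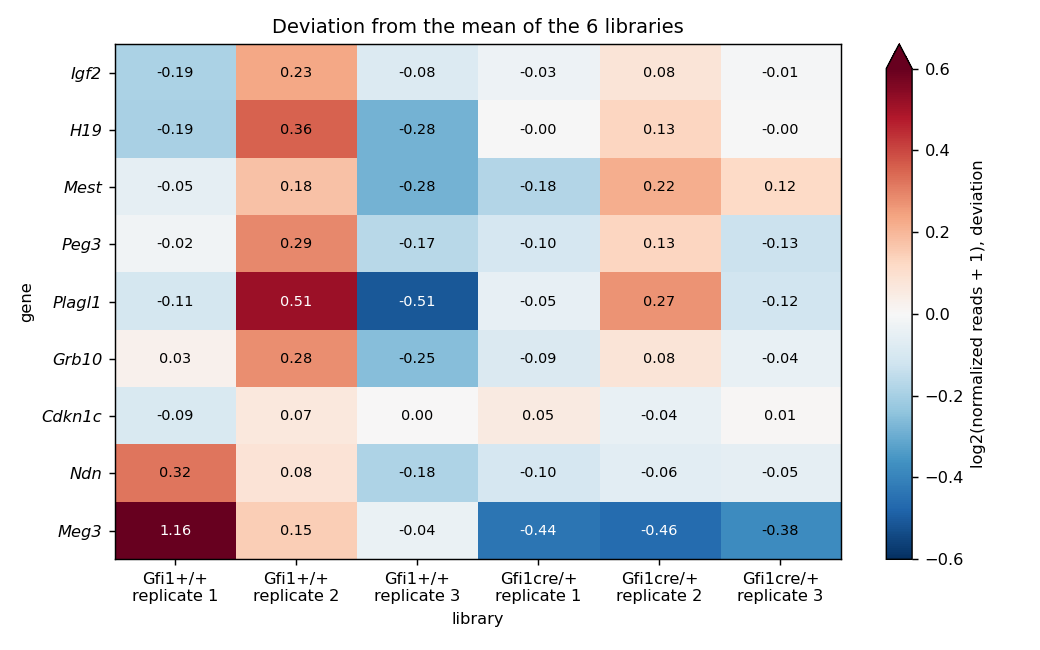
Deviation of each imprinted growth gene (rows) in each library (columns) from the gene's mean over the 6 libraries, on log2(normalized reads + 1), as colour and as the number in the cell. The upper 6 rows share a high Gfi1+/+ replicate 2 (0.18 to 0.51), Cdkn1c stays within 0.09 of its mean, and Meg3 (1.16, beyond the colour scale) and Ndn (0.32) are highest in Gfi1+/+ replicate 1.

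Correlations between members over the 6 libraries are descriptions, since the libraries share their normalization and a single library can set them. Of the 36 pairs of members 11 had a Pearson r of at least 0.8, as did 5.24% of the pairs of all 10365 genes that averaged 200 normalized reads or more. Plagl1, with an average of 196, and Meg3, with 39.2, are not among those genes. Among the 6 genes, r ran from 0.65 to 0.96 with a median of 0.82, and 10 of the 15 pairs reached 0.8. Within genotypes, after each genotype's mean was taken away, 12 of the 15 pairs reached 0.8. Over all pairs of the genes that averaged 200 or more this share was 8.02%, but the 6 genes were picked from these same values. Their counts therefore cannot be read against the shares over all pairs. Without Gfi1+/+ replicate 2 the r of the 15 pairs ran from 0.23 to 0.91 with a median of 0.78, and 7 of the 15 reached 0.8. Igf2 and H19 had an r of 0.93 and a Spearman rho of 0.89, with r at 0.93 within genotypes, 0.82 without Gfi1+/+ replicate 2 and 0.91 without the 2 libraries farthest from the median of Igf2. Plagl1 had an r of 0.96 with Grb10 and of 0.95 with H19, which became 0.69 and 0.76 when the 2 libraries farthest from the median of the first gene of the pair were left out. Over the 15 pairs, r without those 2 libraries ran from 0.16 (H19 and Grb10) to 0.97 (Igf2 and Grb10) with a median of 0.70, and 6 pairs reached 0.8, so that several of these relations rested on the extreme libraries. Cdkn1c, in the same chromosome region as Igf2 and H19, had an r between -0.56 and 0.63 with the other members.

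Outside the group, the genes most like the mean of the 9 members (each scaled to its own SD) over the 6 libraries, among the 10358 other genes that averaged 200 normalized reads or more, were Ahr, Sema3d, Mdc1, Cdh11 and Tgfbi. Ahr encodes the aryl hydrocarbon receptor, and its r of 0.996 came with a narrow range, from 440 to 541 normalized reads. Sema3d encodes a secreted semaphorin, and had an r of 0.988. It had 622, 915 and 479 normalized reads in the Gfi1+/+ replicates and 584, 712 and 560 in the Gfi1cre/+ replicates, the order of the libraries in Plagl1 except that Gfi1+/+ replicate 1 and Gfi1cre/+ replicate 1 changed places. Cdh11, a mesenchymal cadherin, ran from 1912 to 2544 normalized reads with an r of 0.984, Tgfbi, an extracellular matrix protein, had an r of 0.982, and Mdc1, a mediator of the DNA damage checkpoint, had an r of 0.986. The most opposite genes were Rerg (r = -0.995), a small GTPase, and Ces1d (r = -0.994), a carboxylesterase. Ces1d had 1785 normalized reads in Gfi1+/+ replicate 2 and 3028 in replicate 3. These values of r were picked as the extremes of many genes over 6 libraries, and nothing about shared control is read from them.

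The order with Gfi1+/+ replicate 2 highest and replicate 3 lowest was found in 2 of the 8 supporting cell markers (Sox2 and Tectb), in 2 of the 10 fibroblast and mesenchyme markers (Dcn and Col3a1) and in 3 of the 7 proliferating cell markers (Top2a, Pcna and Cdk1), and in no marker of the other cell types that were tested. In the same 2 lists of supporting cell and of fibroblast and mesenchyme markers, Otog and Otos had the reverse order. They were highest in Gfi1+/+ replicate 3 and lowest in replicate 2. Otoa, Gjb6, Coch and Pdgfra were also lowest in Gfi1+/+ replicate 2. Summed supporting cell markers ran from 93597 to 106944 normalized reads in Gfi1+/+ and from 97728 to 104572 in Gfi1cre/+. Tectb alone ran from 35886 to 58321. Summed fibroblast and mesenchyme markers ran from 192780.0 in Gfi1+/+ replicate 1 to 229145 in replicate 3, and from 220734 to 228050.0 in Gfi1cre/+. Summed proliferating cell markers ran from 1488 to 2072 in Gfi1+/+ and from 1883 to 2149 in Gfi1cre/+. The part of these cell types in the levels of the imprinted genes was not tested.

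Over all 6 libraries, Meg3 and Ndn were the members that moved with the neuron markers. All 8 neuron markers were highest in Gfi1+/+ replicate 1, where their summed level was 9234 normalized reads beside 2860 in replicate 2 and 1639 in replicate 3 of that genotype. In the Gfi1cre/+ replicates it was 1177, 1580.1 and 1963. Their log2 fold changes had a median of -1.33, and 5 of the 8 were lower in Gfi1cre/+ at an unadjusted p under 0.05 in limma and none at an adjusted p under 0.05. Over the 6 libraries Meg3 had an r of 0.96 with this sum (rho 0.89), and Ndn an r of 0.95 (rho 0.83). Without Gfi1+/+ replicate 1 these were 0.74 and 0.75, values that were then not particular to them, since Igf2 had an r of 0.76, Grb10 of 0.68 and Peg3 of 0.63 with the same sum. With the summed fibroblast and mesenchyme markers, Ndn had an r of -0.97 and Meg3 of -0.90 over the 6 libraries. Without Gfi1+/+ replicate 1 these were -0.86 and -0.43. Igf2, H19, Peg3, Plagl1 and Grb10 had an r between -0.46 and 0.27 with that sum over the 6 libraries. Without Gfi1+/+ replicate 1 it lay between -0.92 and -0.95. Mest had an r of -0.13 over the 6 libraries and of -0.57 without that replicate. Col1a2 alone averaged 91979 normalized reads of this sum. The sum was highest in Gfi1+/+ replicate 3, where its markers Dcn, Col3a1 and Lum were lowest. Summed glial markers were highest in Gfi1+/+ replicate 1, at 37993 normalized reads beside 16610 to 25918 in the others. The part of neurons or glia in the difference of Meg3 was not tested.

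**Figure D4:**
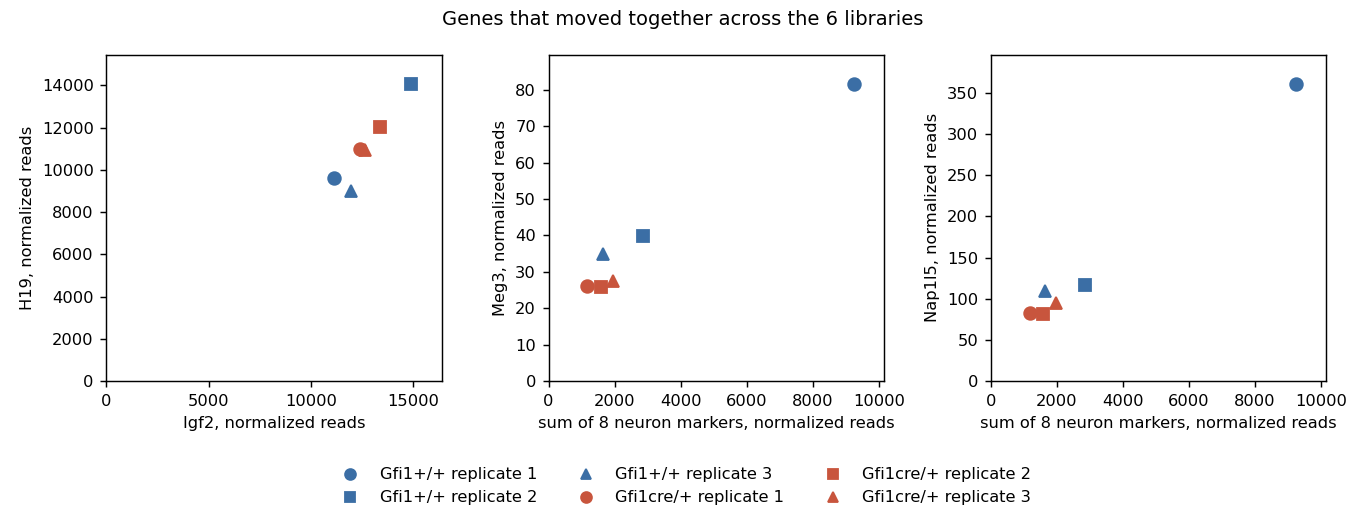
Normalized reads of H19 against Igf2 (left), of Meg3 against the summed level of 8 neuron markers (middle) and of Nap1l5, another imprinted gene, against the same sum (right), with 1 point per library and linear axes from 0. H19 and Igf2 vary together with Gfi1+/+ replicate 2 at the upper end, whereas Meg3 and Nap1l5 are highest in Gfi1+/+ replicate 1, which has a neuron marker sum of 9234.

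Other imprinted genes were read beside the members. Of 69 that were named, 49 were tested, and none was higher and 3 lower in Gfi1cre/+ at an unadjusted p under 0.05 in limma, with none at an adjusted p under 0.05. The genotypes did not overlap in 4 of the 49. Over all genes tested these shares were 3.04% and 7.52%, and the second was close to that of the list. The 4 were Kcnq1, a potassium channel of the stria vascularis, which was higher in Gfi1cre/+, and Nnat, Nap1l5 and Gnas, which were lower. The median log2 fold change of the 49 was 0.00, with 25 positive and 24 negative. Of these genes 17 were highest in Gfi1+/+ replicate 1 and 14 in replicate 2, and 5 (Dcn, Commd1, Gatm, Slc22a3 and Cd81) shared the order with replicate 2 highest and replicate 3 lowest. The highest per kb were Cd81 with 2472, Nnat with 1576 and Dcn with 1409 normalized reads per kb.

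Nnat encodes neuronatin, a small membrane protein expressed from the father's copy. It had 3917, 3323 and 3409 normalized reads in the Gfi1+/+ replicates and 2154, 1377 and 3114 in the Gfi1cre/+ replicates. Here the spread was among the Gfi1cre/+ libraries, and the log2 fold change of -0.75 (SE 0.237) ran from -1.04 to -0.45 when each library was left out in turn. Nap1l5, a nucleosome assembly protein family member, had 360.4, 117 and 109.7 normalized reads in the Gfi1+/+ replicates and 82.7, 81.7 and 95.3 in the Gfi1cre/+ replicates. Its log2 fold change of -0.94 became -0.39 without Gfi1+/+ replicate 1, the library that was also high in Meg3. Its unadjusted p was not under 0.05 without any 1 of the Gfi1cre/+ libraries or in limma without a trend. Gnas encodes the stimulatory G protein alpha subunit at a locus of overlapping imprinted transcripts, and had a log2 fold change of -0.24 (SE 0.0990), or -0.15 without Gfi1+/+ replicate 1. Its unadjusted p was no longer under 0.05 without that library, without Gfi1+/+ replicate 3 or any Gfi1cre/+ library, with a replicate block, in DESeq2 or after quantile normalization, where its genotypes also overlapped. The log2 fold change of widest size was that of Kcnk9, a potassium channel, at -1.65 (SE 1.14), which had 59.2 normalized reads in Gfi1+/+ replicate 1 and between 1.78 and 11.5 in the other 5 libraries. Rasgrf1, a guanine nucleotide exchange factor, had 226 normalized reads in the same library and between 54.9 and 67.9 in the others. Neither passed at an unadjusted p under 0.05, the genotypes overlapped in both, and both were named after their values were seen.

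Mirg, a noncoding RNA gene of the Meg3 domain on chromosome 12, was under the minimum for testing and is named after its values were seen. It had 29.6, 35.6 and 29.5 normalized reads in the Gfi1+/+ replicates and 22.6, 17.8 and 21.7 in the Gfi1cre/+ replicates, from 20 to 34 reads. As in Meg3 the genotypes did not overlap, although the 95% Poisson intervals of their libraries did. Unlike in Meg3, Gfi1+/+ replicate 1 was not the highest library.

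The signalling partners of IGF2 were at steady levels. All 15 that were named were tested and none had an unadjusted p under 0.05 in either direction, with a median log2 fold change of 0.03, 8 positive and 7 negative. Igf1r, the receptor that carries the growth signal, had 604, 665 and 704 normalized reads in the Gfi1+/+ replicates and 603, 764 and 671 in the Gfi1cre/+ replicates. Igf2r, itself imprinted, takes IGF2 to the lysosome, and had 2305, 2556 and 2604 normalized reads in the Gfi1+/+ replicates and 2548, 2834 and 2572 in the Gfi1cre/+ replicates. In both receptors Gfi1cre/+ replicate 2 was highest and the genotypes overlapped, with 95% intervals of the log2 fold change of -0.17 to 0.26 for Igf1r and -0.06 to 0.25 for Igf2r. Insr, the insulin receptor, averaged 1043 ± 63.3 normalized reads in Gfi1+/+ and 1079.6 ± 61.7 in Gfi1cre/+ (SD, n = 3). The RNA-binding proteins that bind Igf2 mRNA, which are active in fetal tissue, ran from 43.4 to 55.5 normalized reads for Igf2bp1, from 598 to 662 for Igf2bp2 and from 64.2 to 81.7 for Igf2bp3. Binding proteins that hold IGFs outside the cell were among the most abundant genes per kb, with 10673 normalized reads per kb for Igfbp5, 6226 for Igfbp4 and 5987 for Igfbp2. Igfbp2, like Igf2, was highest in Gfi1+/+ replicate 2, with 13006 normalized reads beside 9967 and 10499.7 in replicates 1 and 3 and 10222 to 11397 in Gfi1cre/+.

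Genes of DNA methylation and imprint control, which include genes that add, keep and remove methylation, were tested in full, 16 of 16. Of these 1 was higher and none lower in Gfi1cre/+ at an unadjusted p under 0.05, with a median log2 fold change of -0.01. The higher gene was Uhrf1, which brings the maintenance methyltransferase to replicating DNA. It had 87.6, 114 and 93.9 normalized reads in the Gfi1+/+ replicates and 109.7, 138 and 125 in the Gfi1cre/+ replicates, which overlapped. Its unadjusted p was not under 0.05 in edgeR, in DESeq2, or without any 1 of Gfi1+/+ replicates 1 and 3 and Gfi1cre/+ replicates 2 and 3. Markers of proliferating cells, in which Uhrf1 is active, had a positive log2 fold change in 6 of 7 with a median of 0.25, and Mki67 and Mcm5 were higher in Gfi1cre/+ at an unadjusted p under 0.05, without overlap. The part of proliferating cells in the level of Uhrf1 was not tested. Zfp57, which binds the motif shown above, had 196, 195 and 169.8 normalized reads in the Gfi1+/+ replicates and 187, 146 and 156 in the Gfi1cre/+ replicates, also overlapping. The highest per kb were Trim28, the corepressor that ZFP57 recruits, with 959, Rad21, a cohesin subunit, with 683, and Dnmt3a, a DNA methyltransferase, with 348 normalized reads per kb. The genotypes did not overlap for Rad21, which was higher in Gfi1cre/+ with a log2 fold change of 0.05, and for Arid4b, a chromatin protein, with -0.06. Such a lack of overlap, also seen in Mki67 and Mcm5, was found for 7.52% of all genes tested.

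Non-imprinted relatives of the members had no unadjusted p under 0.05 in limma. Of 11 relatives that were named 10 could be tested, all but the imprinted Magel2, with -0.02 as the median of their log2 fold changes. Cdkn1b, the p27Kip1 inhibitor that keeps supporting cells of the organ of Corti from dividing, had 2421, 2377 and 2406 normalized reads in the Gfi1+/+ replicates and 2345, 2191 and 2316 in the Gfi1cre/+ replicates, which did not overlap, with a log2 fold change of -0.07. Plag1, the oncogene relative of Plagl1, did not overlap either, at 196 to 213 normalized reads in Gfi1+/+ and 159 to 194 in Gfi1cre/+. These 2 of the 10 relatives stand beside 7.52% of all genes tested whose genotypes did not overlap. The highest per kb were Maged1 with 3964 and Maged2 with 2102, both of the family of Ndn, and Cdkn1a with 1427 normalized reads per kb.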

How the data were processed

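RNA from P8 cochlear ducts was sequenced as polyA libraries, 3 per genotype. As the submitters' processing notes and the methods have it, the authors aligned reads to mm10 with TopHat, counted uniquely mapped reads on genes with HTSeq and dropped genes with under 40 reads. Versions, annotation and strand setting are not given in the sources used here. The deposited table holds 1 normalized signal per gene and library. The methods name quantile normalization, but 100% of the deposited signal values were whole multiples of 1 step per library to within 0.006 normalized reads, so that each value is whole reads over 1 factor per library, and the factors (0.810 to 1.15) equalled median-of-ratios factors. Genotype and replicate number in a column's name gave its sample.

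A minimum of 40 normalized reads in 1 library or more left 14455 genes, which were tested with limma 3.58.1 (R 4.3.3) on log2(value + 1), eBayes with a trend, genotype as the only term, two-sided, with Benjamini-Hochberg adjustment over these genes. The scale understates fold changes of genes with few reads. The design assumed a normalized unit, so the count tests on the recovered reads are alternatives: edgeR 4.0.16 called 4 and DESeq2 1.42.0 called 10 genes at an adjusted p under 0.05, beside 4 in limma. Other alternatives were pseudocounts of 0.1 and 10, no minimum, an average of 200 or more, no trend, quantile normalization, median centring, a replicate block, and each library left out. The p-values measure the spread between libraries that are single mice in Gfi1+/+ and pools in Gfi1cre/+.

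Members and lists were chosen with earlier results of these data known. The genes named are the members, in each list those at an unadjusted p under 0.05 (at most 5) and the 3 highest per kb, 6 partners of Igf2, and the 5 most and 2 least like the members over the libraries. Others that are named, such as those that did not overlap, were picked after their values were seen. Levels per kb used the joined exons of GENCODE M21 (GRCm38), in which 14796 of 14865 identifiers were found. Marker lists came from general knowledge, and the text names those whose sums bear on a member. Dlk1 was not analysed here.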

Additional observations from a re-analysis of the deposited data

How the results depend on the processing

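No member had an adjusted p under 0.05 in limma, edgeR or DESeq2 under any of the 17 alternatives, and the lowest adjusted p of a member was 0.131, for Ndn without Gfi1+/+ replicate 3 in limma (log2 fold change -0.27). With a minimum of 200 for the average over libraries, which leaves out Meg3 and Plagl1, 0 members had an unadjusted p under 0.05 and 0 did not overlap. Without single libraries, these counts ran from 0 to 2 and from 0 to 3. The 2 at an unadjusted p under 0.05 without Gfi1+/+ replicate 3 (Meg3 and Ndn) stand beside 16.2% of all genes tested there, and genotypes without overlap were found in 13.5% to 34.5% of the genes. Meg3 was called at an unadjusted p under 0.05 only with all Gfi1cre/+ libraries and Gfi1+/+ replicate 1, and without that replicate it fell under the minimum. Without a Gfi1cre/+ library its log2 fold change stayed between -0.88 and -0.83. When all listed genes were kept without Gfi1+/+ replicate 1, 0 members had an unadjusted p under 0.05, and Igf2 was at -0.0631 and Cdkn1c at -0.0282. The log2 fold change of Meg3 was -0.96 in edgeR and -0.97 in DESeq2.

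The median log2 fold change of the members ran from 0.00 to 0.02 over alternatives that kept all libraries, and from -0.17 to 0.10 without single libraries. The sign of a single member turned in 13 of 150 values, each time without a library. Over these the log2 fold change ran from -0.0282 to 0.0491 for Cdkn1c, -0.0631 to 0.15 for Igf2, -0.17 to 0.0609 for Peg3, -0.17 to 0.10 for Grb10, -0.00895 to 0.22 for Mest, -0.0400 to 0.28 for H19 and -0.17 to 0.34 for Plagl1. The cause was not tested. With the replicate number as a replicate block Meg3 was at -0.85 and no call of a member changed. The numbers do not pair the libraries: deviations of same-numbered libraries correlated at -0.09, 0.11 and -0.03. With 3 libraries per genotype, the spread between libraries limits what could be told apart for each member, and Meg3 rests on 29 to 66 reads per library.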
